A study of Mus musculus with 6 samples.

Results

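Voltage-gated calcium channel genes, voltage-gated sodium channel genes and genes of the transient receptor potential (TRP) cation channels were examined in pancreatic islets of male mice exposed to vehicle or bisphenol-A before birth. The members were chosen by symbol, from all probe sets annotated with a single gene. The symbol begins with Cacna, Cacnb, Cacng, Scn and a digit, or Trpa, Trpc, Trpm or Trpv and a digit. For each gene the probe set with the highest mean log2 signal over the 6 arrays was taken. The rule was set with earlier results of these data known. This gave 55 genes, covered by 125 probe sets, of 18193 genes with a single annotation on the array. They are 24 calcium channel genes (9 pore subunits, 4 alpha2delta, 3 beta and 8 gamma subunits), 11 sodium channel genes (8 pore and 3 beta subunits) and 20 genes with a TRP symbol. One of the latter, Trpc4ap, encodes a protein that binds a TRPC channel and is not a channel itself.

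The 6 arrays fall into 3 groups of 2. All mice were wild-type males of the outbred OF-1 stock, and islets were taken at postnatal day 30. Treatment was vehicle (the vehicle group), bisphenol-A at 10 µg/kg/day (BPA10) or bisphenol-A at 100 µg/kg/day (BPA100) between gestation days 9 and 16. Vehicle replicate 1 carried pooled islets of 5 mice and BPA10 replicate 2 those of 2 mice, while the other 4 arrays each carried islets of 1 mouse. The labels do not give litters, so the p-values below measure only the spread between these arrays.

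Voltage-gated calcium and sodium channels open when the cell membrane depolarises. In beta cells, glucose metabolism closes ATP-sensitive potassium channels, the membrane depolarises, and calcium entry through voltage-gated channels sets off insulin granule release. The pore of such a calcium channel is 1 large protein, helped to the membrane and tuned by alpha2delta and beta subunits. TRP channels pass calcium, sodium or both and respond to lipids, temperature, intracellular calcium or other signals. Some of them carry the background inward current that brings beta cells towards their firing threshold.

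Signals are MAS5 values per probe set, scaled by the authors to one trimmed mean per array, so a level is relative to the rest of that array and is not compared between genes. The median signal of an array was 33 to 40, and arrays correlated with each other at 0.945 to 0.975. The islet label held against the hormone genes: Ins2 lay between 2680 and 4873 and Gcg between 8754 and 12171 over the 6 arrays. Acinar cell markers were bright too. Their summed signal over 12 measured genes was 69809 and 48824 on the vehicle arrays, 96282 and 90433 on the BPA10 arrays, and 93258 and 62480 on the BPA100 arrays, and none was at 0 on any array.

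Of the 55 genes, 35 were bright enough to be tested with limma, with a mean log2(signal + 1) of at least 4.6, where the lowest 40% of probe sets end. The members nearest this limit were Scn1a (4.64) inside and Cacng5 and Cacna1e (both 4.59) outside. None of the 35 passed an adjusted p of 0.05 in any of the 3 comparisons, nor in the F test over the 3 groups, where 0% of all 27022 tested probe sets passed each of the 4 tests. The smallest adjusted p among the members was 0.501 for BPA10 against vehicle, 1 for BPA100 against vehicle, 0.964 for BPA100 against BPA10 and 0.811 over the 3 groups. Differences below are of mean log2(signal + 1), with the moderated standard error (SE). The added 1 shrinks differences most at the lowest signals, but differences of dim probe sets are also less precise. The SE was 0.51 for the dimmest tested member, Scn1a, and 0.2 for the brightest, Cacna2d1. As the members' calls are none, no direction given below is a called change.

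Between BPA10 and vehicle, 13 of the 35 members had a higher mean (37.1%), 21 a lower one (60%), and Cacna1f was level. Over all tested probe sets 50.1% were higher and 49.9% lower. The members' median difference was -0.13, against 0.00 over all probe sets. At an unadjusted p under 0.05, 1 member was higher (Cacng2, 2.86% of members against 3.12% of all probe sets) and 2 were lower (Cacna1d and Trpc7, 5.71% against 3.96%). Both BPA10 arrays lay above both vehicle arrays for 3 members (8.57%, against 17.5% of all probe sets) and below both for 7 (20%, against 18.6%). With 35 members, 1 gene is 2.86% of them, so none of these shares is read as a departure from the background. The counts at an unadjusted p under 0.05 moved when single arrays were left out. The share over all probe sets was not computed in those fits.

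Between BPA100 and vehicle, 16 members were higher (45.7%, against 49.1% of all probe sets) and 19 lower (54.3%, against 50.8%), with a median difference of -0.04. At an unadjusted p under 0.05, 0 members were higher (2.11% of all probe sets) and 1, Trpm5, was lower (2.86%, against 1.87%). The arrays of the groups were separate for 8 members in the higher direction (22.9%, against 16.1%) and for 8 in the lower (22.9%, against 15.8%). Leaving out single arrays moved both counts at an unadjusted p under 0.05, again with no share over all probe sets computed.

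Between BPA100 and BPA10, 22 members were higher (62.9%, against 50.5%) and 13 lower (37.1%, against 49.4%), with a median difference of 0.08. At an unadjusted p under 0.05, 1 was higher (Cacna1d, 2.86%, against 2.44%) and 1 lower (Cacng2, 2.86%, against 2.31%). Both BPA100 arrays lay above both BPA10 arrays for 11 members (31.4%, against 15.7% of all probe sets) and below for 5 (14.3%, against 15%). Over the 3 groups, 3 members had an unadjusted F-test p under 0.05 (Cacng2, Cacna1d and Trpc7, 8.57%, against 5.23%). These counts at an unadjusted p moved when single arrays were left out, where no share over all probe sets was computed. The comparisons with vehicle share the vehicle arrays, and those with BPA10 share the BPA10 arrays, so their counts are not independent.

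**Figure D1:**
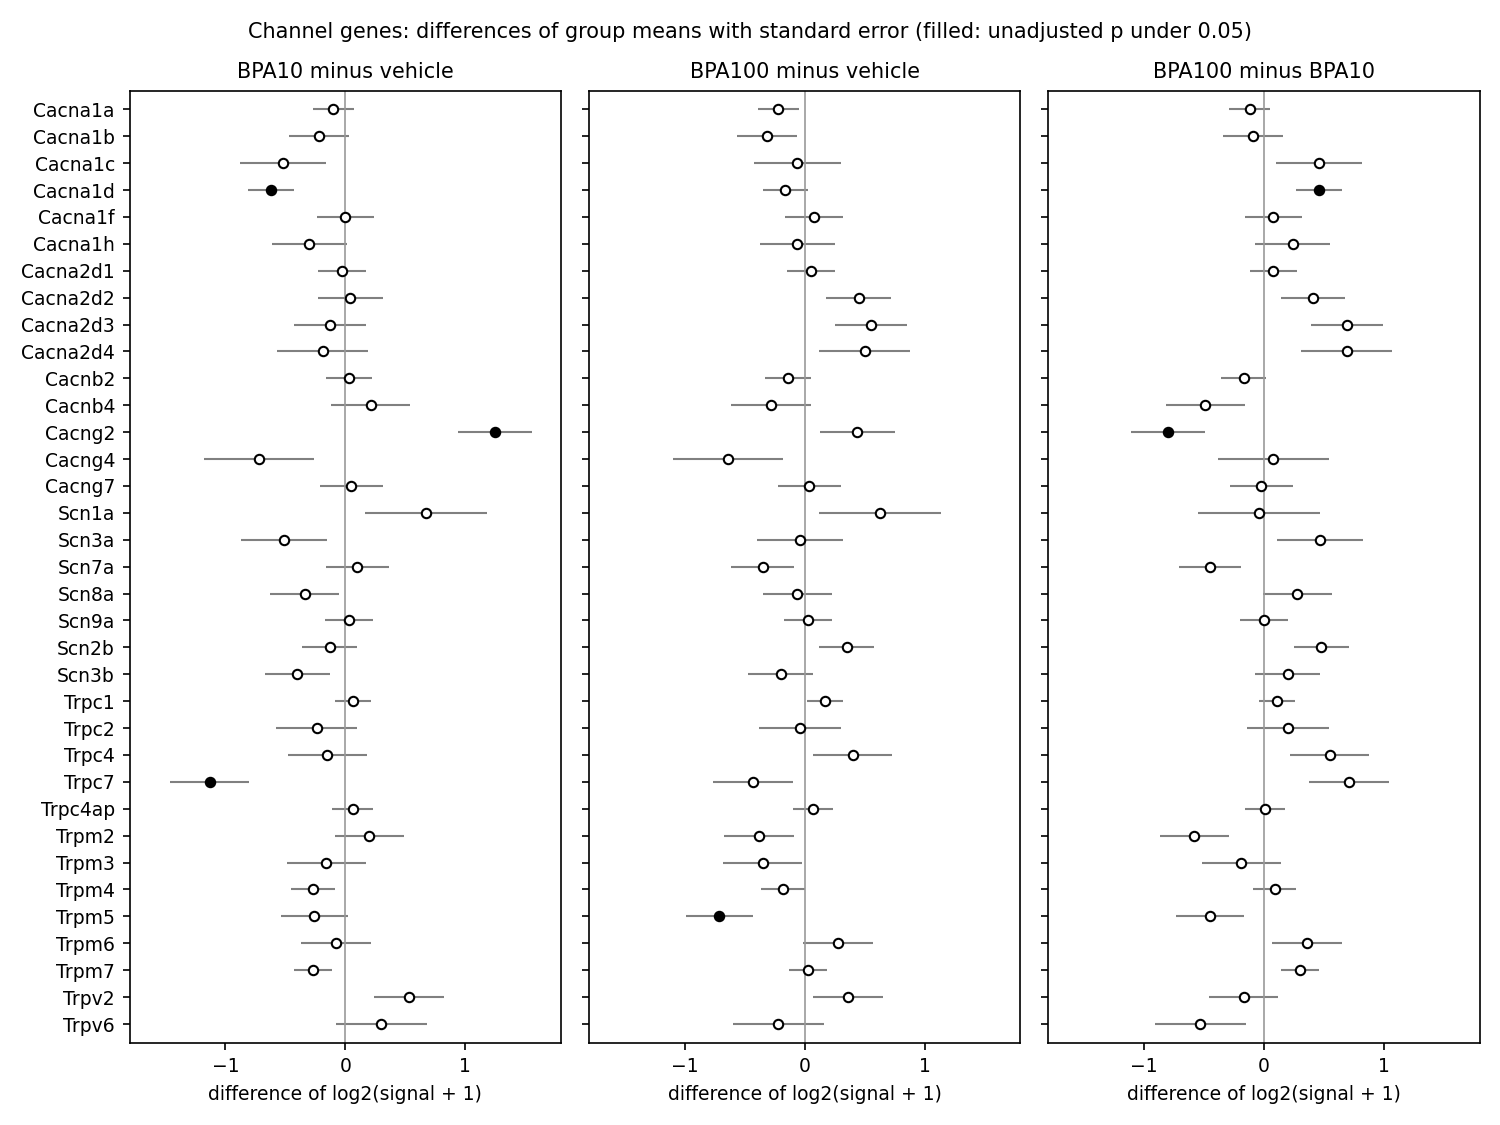
Differences of group means of log2(signal + 1) for the 35 tested channel genes, with BPA10 minus vehicle on the left, BPA100 minus vehicle in the middle and BPA100 minus BPA10 on the right. Points are differences and bars 1 SE of the limma fit; filled points have an unadjusted p under 0.05, namely Cacng2, Cacna1d and Trpc7 on the left, Trpm5 in the middle, and Cacna1d and Cacng2 on the right.

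Among the pore subunits of the calcium channels, the L-type gene Cacna1d had the smallest p in the F test over the 3 groups. Its channel opens at modest depolarisation and takes part in calcium entry in islet cells. The signal was 495 and 487 on the vehicle arrays, 299 and 339 on the BPA10 arrays, and 362 and 531 on the BPA100 arrays. This probe set has the suffix _s_at, which Affymetrix gives where probes may match several transcripts. Both BPA10 arrays lay below the other 4 arrays, while the BPA100 arrays lay on either side of the vehicle arrays. BPA10 differed from vehicle by -0.62 ± 0.19 (SE), or 1.54-fold lower (unadjusted p = 0.0111, limma adjusted p = 0.617), and BPA100 from BPA10 by 0.46 ± 0.19 (adjusted p = 0.964). Without BPA100 replicate 2 the latter was 0.18, and with the mean of the gene's probe sets the former was -0.16. The second probe set of the gene went the other way: it measured 54 and 50 in vehicle, 58 and 72 in BPA10, and 53 and 63 in BPA100, a difference of 0.31 between BPA10 and vehicle. In whole islets, fewer cells of a type and less RNA per cell cannot be told apart, here and for the genes below. On the same BPA10 arrays the mean of the acinar markers stood 1.12 and 0.91 above the vehicle mean on the log2 scale, with 12 of 12 genes higher. Their differences ran from 0.19 (Bhlha15) to 2.46 (Rbpjl), and the acinar mean on the vehicle arrays themselves was 0.33 and -0.33. The mean of the beta-cell markers stood 0.16 and 0.31 above the vehicle mean on the BPA10 arrays, with 8 of 8 higher. The part of cell makeup in the Cacna1d difference was not tested.

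The RefSeq promoter table of build GRCm38.p6 held 45 of the 55 members in 59 start-site windows, of which the 250 bases before the start were searched on both strands. The windows of Cacna1d, Cacng2 and Trpc7 are shown because these members had the smallest p over the 3 groups. Capitals mark matches to the GC box GGGCGG or the TATA box TATAAA, and overlapping matches run together. Cacna1d has 2 listed starts.
Cacna1d, chr14:30491157-30491406, minus strand: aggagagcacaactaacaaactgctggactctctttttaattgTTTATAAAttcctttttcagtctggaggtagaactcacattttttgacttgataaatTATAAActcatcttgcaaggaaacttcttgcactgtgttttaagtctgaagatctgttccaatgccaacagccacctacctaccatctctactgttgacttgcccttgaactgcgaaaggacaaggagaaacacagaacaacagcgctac
Cacna1d, chr14:30353487-30353736, minus strand: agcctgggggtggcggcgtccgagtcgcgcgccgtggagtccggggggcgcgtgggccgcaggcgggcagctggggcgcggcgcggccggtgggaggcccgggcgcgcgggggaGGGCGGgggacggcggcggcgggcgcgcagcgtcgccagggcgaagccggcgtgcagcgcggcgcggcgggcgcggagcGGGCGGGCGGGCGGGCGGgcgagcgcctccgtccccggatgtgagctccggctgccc
Cacng2, chr15:78119281-78119530, minus strand: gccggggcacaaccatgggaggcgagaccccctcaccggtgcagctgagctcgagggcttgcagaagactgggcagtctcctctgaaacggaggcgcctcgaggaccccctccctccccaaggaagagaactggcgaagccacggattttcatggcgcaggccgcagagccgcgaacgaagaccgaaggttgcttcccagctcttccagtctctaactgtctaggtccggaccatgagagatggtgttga
Trpc7, chr13:56895790-56896039, minus strand: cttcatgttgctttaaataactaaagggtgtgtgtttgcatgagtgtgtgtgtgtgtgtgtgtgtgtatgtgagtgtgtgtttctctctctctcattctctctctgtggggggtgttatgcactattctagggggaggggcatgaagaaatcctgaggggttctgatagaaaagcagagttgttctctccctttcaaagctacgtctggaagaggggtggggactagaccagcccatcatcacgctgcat
The 2 windows of Cacna1d differed in base composition, with 39.6% G and C and 3 TATA box matches in the one at 30491157 and 86.4% G and C and 5 GC box matches in the one at 30353487. The windows of Cacng2 and Trpc7 held neither motif. Of all 32851 windows, 32.7% held a GC box and 12.4% a TATA box, against 30.5% and 8.47% of the members' 59. The palindromic estrogen response element was in 0.0639% of all windows and in none of the members', and its core GGTCA, which lies inside it, in 35.2% and 32.2%. The AP-1 site TGANTCA was in 6.75% of all windows and 1.69% of the members', and the cAMP response element TGACGTCA in 1.55% of all and none of the members'. The files do not tie either Cacna1d probe set to a start.

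Cacna1c, the other L-type pore gene of islets, measured 99 and 129 in vehicle, 58 and 106 in BPA10, and 81 and 144 in BPA100. All 3 groups overlapped, and the BPA10 and BPA100 arrays each stood far apart within their group. Its second probe set measured 65 and 92, 76 and 90, and 101 and 104. Cacna1a, the P/Q-type pore gene, measured 209 and 193 in vehicle, 199 and 177 in BPA10, and 162 and 183 in BPA100, with both BPA100 arrays below both vehicle arrays. Cacna1b, the N-type pore gene of nerve terminals, measured 86 and 90, 65 and 88, and 62 and 81. Again the BPA100 arrays lay below the vehicle arrays. The other tested probe sets of Cacna1a and Cacna1b all overlapped between BPA100 and vehicle. The T-type gene Cacna1h, whose channel opens near the resting potential, measured 39 and 55 in vehicle, 37 and 38 in BPA10, and 38 and 52 in BPA100. Cacna1f, a pore gene known from the retina, lay between 54 and 59 on every array. Of these 6 tested pore genes, 5 had a lower mean in BPA10 than in vehicle and 5 in BPA100 than in vehicle, and 0 passed the adjusted test in either comparison. Their median differences were -0.26 and -0.11, where 49.9% and 50.8% of all tested probe sets were lower.

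The alpha2delta subunits bring the pore to the membrane, and those of Cacna2d1 and Cacna2d2 bind gabapentin-type drugs. Cacna2d1 measured 1230 and 1336 in vehicle, 1188 and 1324 in BPA10, and 1061 and 1649 in BPA100, with the widest gap inside the BPA100 group. Cacna2d2 measured 37 and 46, 44 and 41, and 60 and 54, so that both BPA100 arrays were above the other 4. Cacna2d3 measured 32 and 41, 35 and 31, and 48 and 60, with the same order of arrays. Against vehicle, BPA100 differed by 0.45 ± 0.27 for Cacna2d2 and 0.55 ± 0.30 for Cacna2d3 (limma adjusted p = 1 for both), and against BPA10 by 0.69 ± 0.30 for Cacna2d3 (adjusted p = 0.964). Cacna2d4 measured 37 and 21 in vehicle, 27 and 22 in BPA10, and 43 and 37 in BPA100. All 4 alpha2delta genes had a higher mean in BPA100 than in either other group, with medians of 0.48 against vehicle and 0.55 against BPA10. Of all tested probe sets, 49.1% and 50.5% were higher in these comparisons. The other probe sets of Cacna2d2 and Cacna2d4, 2 for each gene, lay below the brightness limit. Between BPA100 and vehicle those of Cacna2d4 differed by -0.88 and -2.04, opposite to its brightest probe set, and those of Cacna2d2 by -0.80 and 0.00. With the mean of its probe sets, Cacna2d2 differed by -0.12 between BPA100 and vehicle.

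Beta subunits sit on the inner side of the pore and set its opening. Cacnb2 measured 209 and 195 in vehicle, 186 and 228 in BPA10, and 204 and 165 in BPA100. Cacnb4 measured 32 and 30, 38 and 34, and 22 and 29, with BPA10 arrays highest and BPA100 arrays lowest. Gamma subunits of the stargazin kind are better known as partners of AMPA-type glutamate receptors. Cacng2, which encodes stargazin itself, measured 23 and 26 in vehicle, 57 and 62 in BPA10, and 29 and 39 in BPA100. Neither BPA dose overlapped with vehicle, and the BPA10 arrays stood clear of the other 4. BPA10 differed from vehicle by 1.25 ± 0.31, or 2.37-fold higher (unadjusted p = 0.00341, limma adjusted p = 0.501), and BPA100 from BPA10 by -0.80 ± 0.31 (adjusted p = 0.964). The signal was low, and the gene's 2 other probe sets, at 3 to 12 on all arrays, were below the brightness limit. Cacng4 measured 66 and 36, 19 and 45, and 32 and 30, and its other tested probe set differed the opposite way. Cacng7 lay between 45 and 54 on all arrays.

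**Figure D2:**
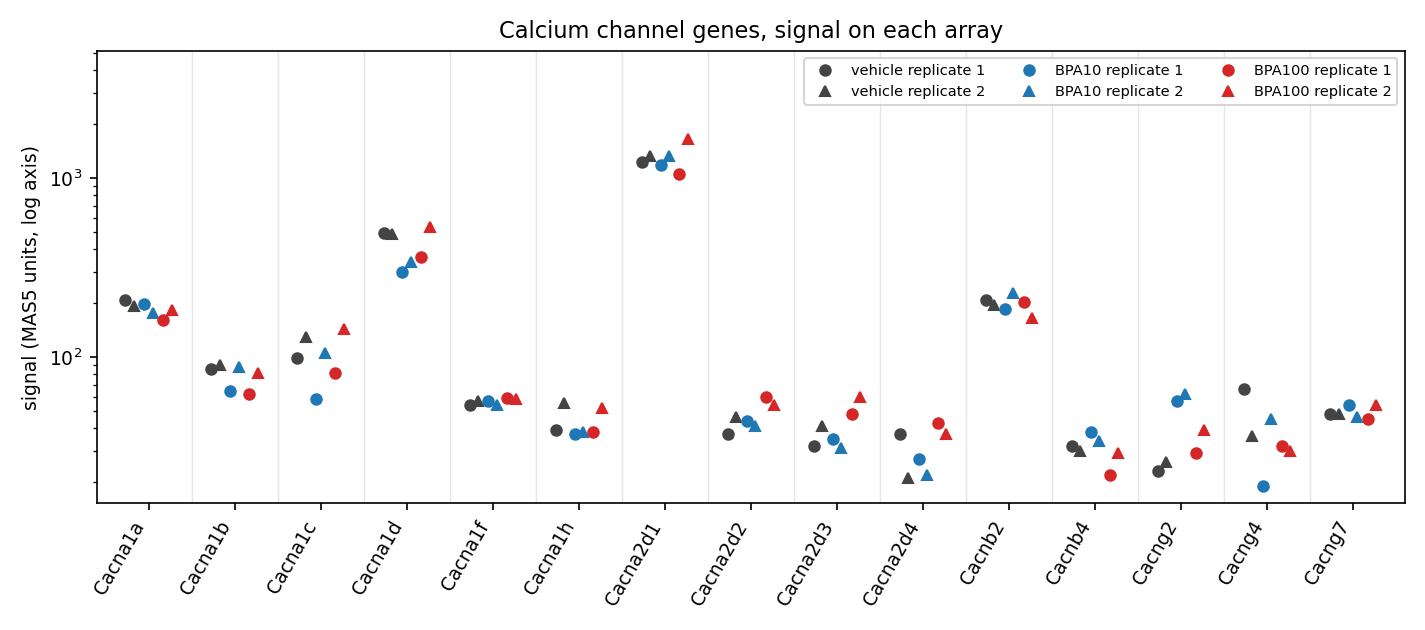
Signal of the 15 tested calcium channel genes on each array, on a log axis in MAS5 units; colours are groups, circles replicate 1 and triangles replicate 2. Cacna1d and Cacng2 show the BPA10 arrays apart from the other 4, while Cacna2d2 and Cacna2d3 show the BPA100 arrays above the rest.

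Among sodium channel pores, Scn9a and Scn3a encode channels described in mouse islet cells. Scn9a measured 478 and 662 in vehicle, 553 and 597 in BPA10, and 493 and 673 in BPA100. The groups overlapped fully, and their means differed by at most 0.03 (SE 0.20). This probe set has a suffix that Affymetrix gives where probes may also match other transcripts. Scn3a measured 117 and 155, 102 and 87, and 86 and 200, with the BPA10 arrays below vehicle and the BPA100 arrays on both sides. Scn8a, a neuronal pore gene, measured 157 and 98 in vehicle, 102 and 94 in BPA10, and 96 and 148 in BPA100. Scn1a measured 30 and 10, 31 and 26, and 28 and 27, so its group differences rested on vehicle replicate 2. Scn7a encodes a sodium sensor of glia that voltage does not open in the usual way. It measured 220 and 188 in vehicle, 291 and 163 in BPA10, and 161 and 157 in BPA100, with both BPA100 arrays below the other 4. This order did not hold on the gene's other tested probe sets. One measured 103 and 107, 126 and 79, and 64 and 80, and another 36 and 33, 42 and 40, and 29 and 47. Markers of Schwann cells and neurons, 8 measured genes, had summed signals of 764 and 821, 826 and 930, and 771 and 907. None was at 0 on the same arrays. Brightest among these were the neuronal markers Elavl4 (246 to 325) and Th (117 to 299), so the sum says little about glia. Of the glial markers, Sox10 measured 45 and 47, 60 and 78, and 65 and 60. S100b measured 37 and 53, 55 and 54, and 45 and 40. Ngfr measured 21 and 33, 70 and 33, and 17 and 26. Gfap measured 22 and 15, 19 and 8, and 13 and 9. The part of these cells in the Scn7a values was not tested.

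The sodium channel beta subunits are small membrane proteins that anchor and tune the pore. Scn2b measured 68 and 89 in vehicle, 71 and 71 in BPA10, and 93 and 106 in BPA100, with the BPA100 arrays highest. BPA100 differed from vehicle by 0.35 ± 0.23 (limma adjusted p = 1). Its second tested probe set measured 31 and 45, 26 and 33, and 59 and 61, the same order of groups, with a difference of 1.01 between BPA100 and BPA10 (unadjusted p = 0.0115). Scn3b measured 73 and 109, 61 and 74, and 70 and 86, and its groups overlapped. Over the 7 tested sodium channel genes, 3 had a higher and 4 a lower mean in BPA10 than in vehicle, and the same counts held for BPA100 against vehicle. None passed.

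TRPC channels open after phospholipase C signalling. Trpc7, of the subfamily that diacylglycerol activates, measured 123 and 105 in vehicle, 36 and 73 in BPA10, and 80 and 89 in BPA100. No array of one group fell inside the range of another, with BPA10 lowest and vehicle highest. BPA10 differed from vehicle by -1.13 ± 0.33, or 2.19-fold lower (unadjusted p = 0.00774, limma adjusted p = 0.592). It rested in part on BPA10 replicate 1, without which the difference was -0.63. BPA100 differed from BPA10 by 0.71 ± 0.33 (adjusted p = 0.964), and by 0.21 without BPA10 replicate 1. The array has no second single-gene probe set for Trpc7. Trpc1, the widely expressed family member, measured 330 and 354, 337 and 377, and 419 and 353. Trpc4 measured 31 and 45, 40 and 28, and 48 and 51, with the BPA100 arrays above the other 4. Trpc2, known from the vomeronasal organ, lay between 28 and 49, and Trpc4ap between 229 and 276. The 4 tested TRPC channels all had a higher mean in BPA100 than in BPA10, with a median of 0.38, and 0 passed. Over all tested probe sets 50.5% were higher. Other tested probe sets of these genes differed by 0.29 (Trpc1), 0.30 (Trpc4) and -0.06 (Trpc2) between BPA100 and BPA10.

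Trpm5 and Trpm4 encode cation channels that intracellular calcium opens and that pass sodium, which depolarises beta cells further. Trpm5 measured 727 and 771 in vehicle, 600 and 652 in BPA10, and 319 and 657 in BPA100. The low group mean of BPA100 came from replicate 1, which measured under the lowest of the other 5 arrays by a wide gap. BPA100 differed from vehicle by -0.71 ± 0.28, or 1.63-fold lower (unadjusted p = 0.036, limma adjusted p = 1), and by -0.19 without BPA100 replicate 1. The other probe sets of the gene showed the same array lowest. One, with the suffix _s_at, measured 416 and 373, 325 and 347, and 82 and 322. The other measured 191 and 111, 173 and 174, and 70 and 173. On that array the acinar markers stood 0.89 and the beta-cell markers 0.23 above the vehicle mean, and the part of cell makeup in the Trpm5 values was not tested. Trpm4 measured 125 and 146 in vehicle, 110 and 114 in BPA10, and 118 and 120 in BPA100, with all 4 BPA arrays below vehicle. It differed by -0.27 and -0.18, with an SE of 0.18, and did not pass.

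Trpm7, a channel fused to a kinase that handles magnesium, measured 673 and 667 in vehicle, 594 and 518 in BPA10, and 604 and 773 in BPA100. Both BPA10 arrays lay below the other 4, by a difference of -0.27 ± 0.16 from vehicle. Its 3 other tested probe sets differed by -0.25, -0.81 and -1.02 between BPA10 and vehicle, all in the same direction. The last of these has the suffix _s_at. Trpm6, its relative in magnesium uptake, measured 39 and 34, 34 and 35, and 42 and 47. Trpm2, opened by ADP-ribose and oxidative stress, measured 96 and 62 in vehicle, 101 and 78 in BPA10, and 51 and 68 in BPA100. Trpm3, which responds to the steroid pregnenolone sulfate, measured 58 and 68, 44 and 71, and 60 and 40. On these probe sets, Trpm2 and Trpm3 overlapped with vehicle at each dose. The other tested probe set of Trpm3 measured 33 and 43, 16 and 24, and 17 and 28, with both doses below vehicle. That of Trpm2 measured 20 and 30, 40 and 18, and 55 and 38, with the BPA100 arrays above vehicle.

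In the TRPV group, Trpv2 measured 40 and 39 in vehicle, 69 and 48 in BPA10, and 58 and 45 in BPA100. All 4 BPA arrays lay above both vehicle arrays. BPA10 differed from vehicle by 0.53 ± 0.29 (limma adjusted p = 0.771), and by 0.27 without BPA10 replicate 1. Macrophage and myeloid markers, among which Trpv2 is also known to be expressed, had summed signals over 7 genes of 2044 and 934, 1655 and 1120, and 930 and 961, with none at 0. Their part in the Trpv2 values was not tested. Trpv6, a calcium-selective epithelial channel, measured 39 and 22, 39 and 34, and 26 and 24.

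**Figure D3:**
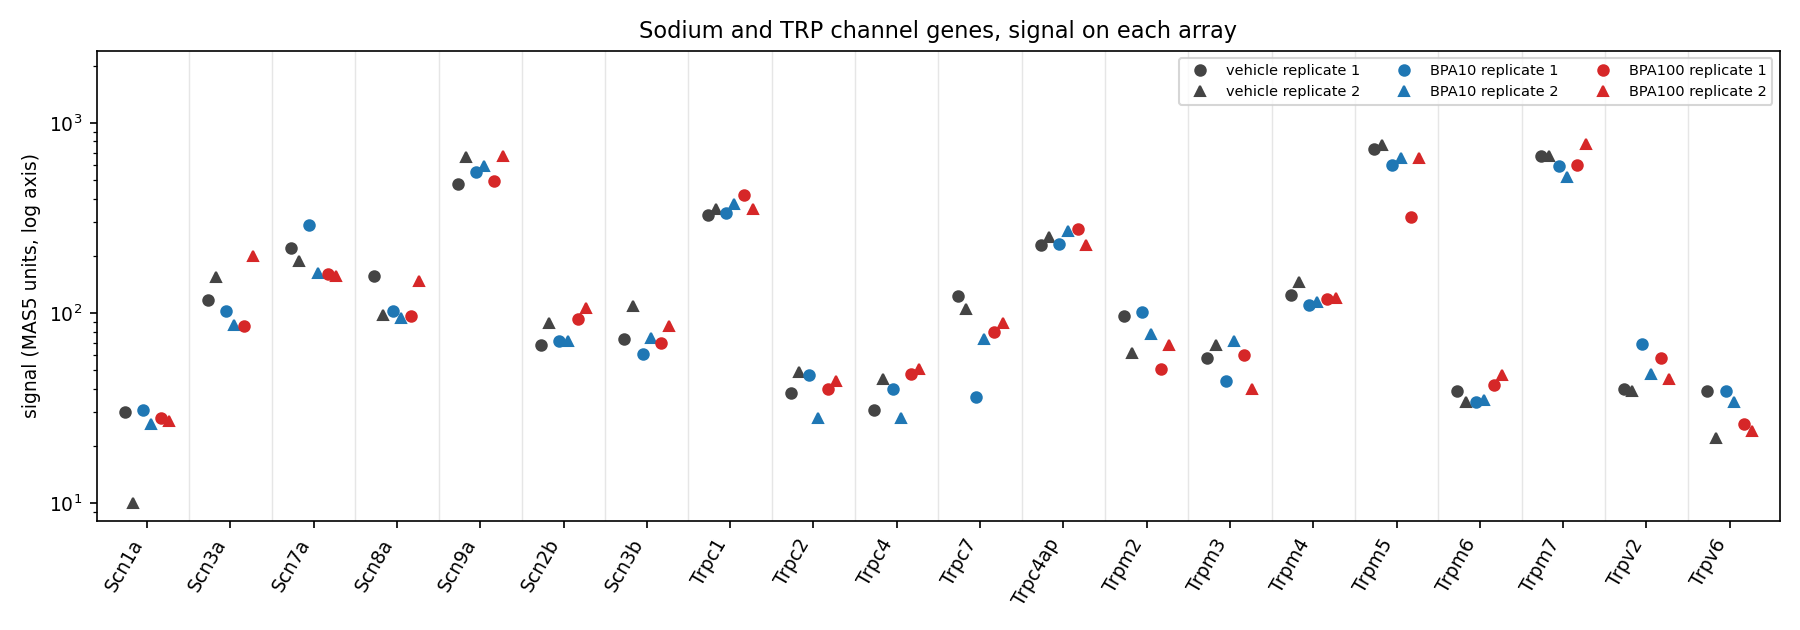
Signal of the 20 tested sodium channel and TRP genes on each array, on a log axis in MAS5 units; colours are groups, circles replicate 1 and triangles replicate 2. Trpm5 on BPA100 replicate 1 (319) lies below the other 5 arrays, and Trpc7 on BPA10 replicate 1 (36) is its lowest value.

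The 20 members under the brightness limit had signals between 1 and 36, with a median of 15, and none was at 0. They are the pore genes Cacna1e, Cacna1g, Cacna1s, Scn2a, Scn10a and Scn11a, the auxiliary genes Cacnb1, Cacng1, Cacng3, Cacng5, Cacng6, Cacng8 and Scn4b, and the TRP genes Trpa1, Trpc5, Trpc6, Trpm1, Trpm8, Trpv1 and Trpv4. Cacna1e, the R-type pore gene, lay just under the limit at 24 and 22 in vehicle, 15 and 33 in BPA10, and 23 and 25 in BPA100. Cacna1g, a T-type pore gene, measured 3 and 3, 3 and 3, and 5 and 2, and the neuronal pore gene Scn2a 17 and 9, 10 and 15, and 11 and 11. Trpa1, the irritant receptor, measured 14 and 20, 17 and 15, and 18 and 24. Trpv1, the capsaicin receptor, measured 15 and 16, 11 and 25, and 12 and 12. Trpv4, an osmotically sensitive channel, measured 3 and 4, 19 and 7, and 5 and 4. Signals this low allow no statement on whether the genes are expressed.

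Probe sets of the same gene gave a second reading for 20 of the tested members. Of 30 such tested probe sets, 19 had the sign of the member's own difference for BPA10 against vehicle, 16 for BPA100 against vehicle and 18 for BPA100 against BPA10. With the members' own probe sets included, 65 were tested. For BPA10 against vehicle 41 of these were lower and 23 higher. At an unadjusted p under 0.05, 8 were lower (12.3%, against 3.96% of all probe sets) and 1 higher (1.54%, against 3.12%). The 8 came from 7 genes. Beside Cacna1d and Trpc7 they are a probe set each of Cacna1a, Cacna2d1, Scn8a and Trpm6 and 2 of Trpm7, which were chosen after their values were seen. The Cacna1a probe set measured 46 and 60 in vehicle, 15 and 26 in BPA10, and 30 and 52 in BPA100, a difference of -1.37 between BPA10 and vehicle, whereas the gene's brightest probe set differed by -0.10. The Scn8a probe set measured 55 and 47, 31 and 29, and 48 and 42. None of the 8 passed the adjusted test, and probe sets of 1 gene share its transcripts. The count of 8 was smaller without vehicle replicate 2, without BPA10 replicate 1 and with only arrays of 1 mouse. In those fits the share over all probe sets was not computed.

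**Figure D4:**
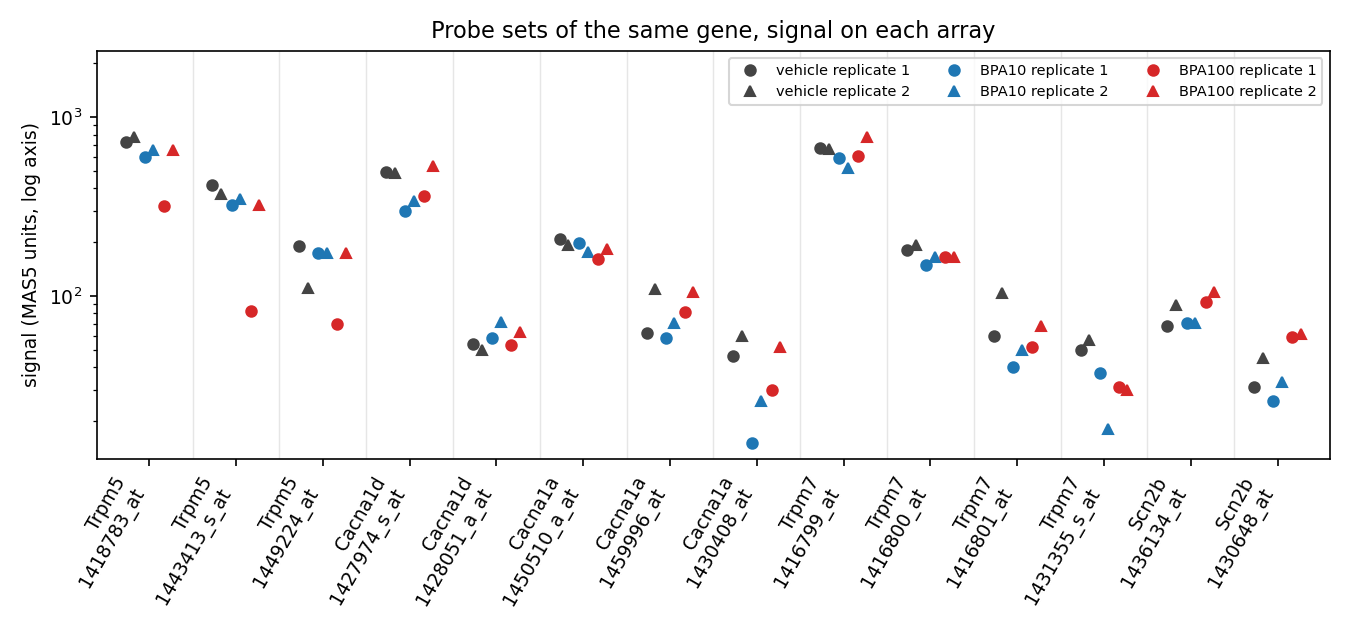
Signal of the tested probe sets of Trpm5, Cacna1d, Cacna1a, Trpm7 and Scn2b on each array, on a log axis in MAS5 units; colours are groups, circles replicate 1 and triangles replicate 2. The 3 Trpm5 probe sets all have BPA100 replicate 1 lowest (319, 82 and 70), while those of Cacna1d go opposite ways in BPA10.

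Across arrays, the median of the 35 members relative to the vehicle mean was -0.04 and 0.04 on the vehicle arrays, -0.05 and -0.09 on the BPA10 arrays, and -0.17 and 0.11 on the BPA100 arrays. The widest gap was thus inside the BPA100 group. BPA100 replicate 2 held the highest value of 10 members and the lowest of 3, where it was highest for 16.8% and lowest for 16.1% of all probe sets, and it exceeded replicate 1 in 23 of 35 members (65.7%, against 50% of all). Genes on this side included Cacna2d1, Cacna1d, Scn3a, Scn8a, Scn9a, Trpm5 and Trpm7. For BPA100 replicates 1 and 2, the acinar list was at 0.89 and 0.12, the stellate and smooth muscle list at -0.34 and -0.60, and the beta-cell list at 0.23 and 0.08. The part of acinar RNA in the channel values was not tested. Within the groups, replicates differed by a median of 0.23, 0.20 and 0.29 for members in vehicle, BPA10 and BPA100, against 0.22, 0.25 and 0.23 over all tested probe sets.

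**Figure D5:**
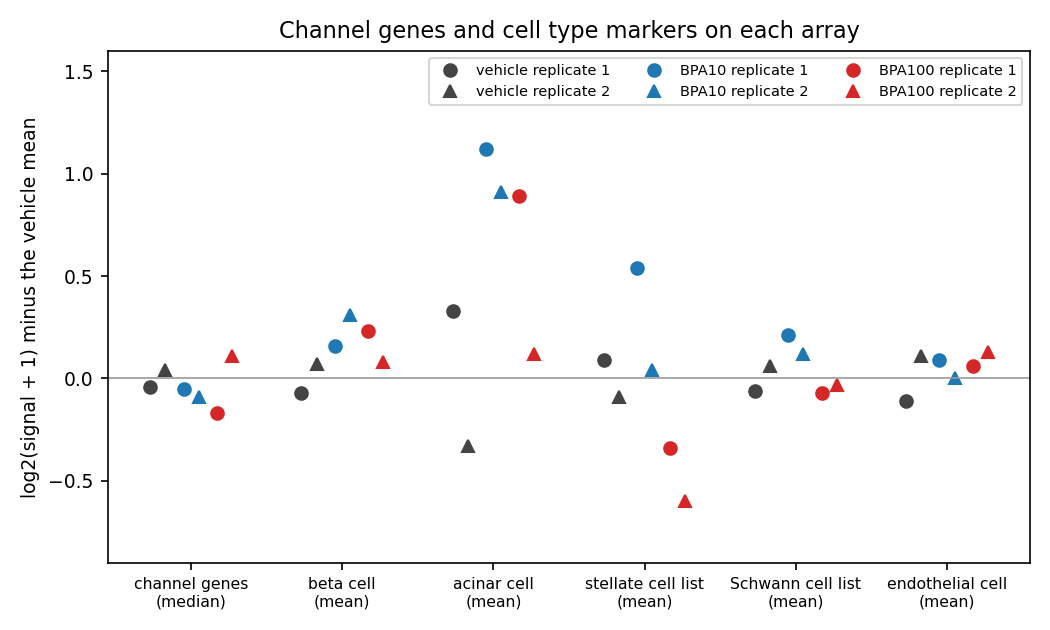
Median of the 35 tested channel genes and mean of 5 marker lists on each array, as log2(signal + 1) minus the vehicle mean; colours are groups, circles replicate 1 and triangles replicate 2. Channel medians stay between -0.17 and 0.11, while the acinar list runs from -0.33 to 1.12.

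Genes that work with these channels were read from 4 lists. Of 23 tested genes of calcium stores and pumps, 9 were higher and 14 lower in BPA10 than in vehicle (median -0.01), and 0 passed the adjusted test in any comparison. At an unadjusted p under 0.05, 2 were higher and 1 lower in BPA10, where 3.12% of all probe sets were higher and 3.96% lower. The pump Atp2a2, which refills the endoplasmic reticulum, measured 4987 and 5703 against 7360 and 6369, the store-operated channel Orai2 49 and 29 against 56 and 75, and the calcium release channel Itpr3 203 and 173 against 106 and 146. Itpr3 was also below vehicle on both BPA100 arrays, at 123 and 155. In BPA100 against vehicle 11 genes of this list were higher and 12 lower. At an unadjusted p under 0.05 there were 0, where 2.11% of all probe sets were higher and 1.87% lower.

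Of 16 tested channel regulators, 7 were higher and 9 lower in BPA10 than in vehicle, and 8 and 8 in BPA100 than in vehicle. In both comparisons 0 had an unadjusted p under 0.05. Over all probe sets, 3.12% were higher and 3.96% lower in BPA10 at this limit, and 2.11% and 1.87% in BPA100. Camk2b, a subunit of the calcium-dependent kinase CaMKII, measured 783 and 732 in vehicle, 650 and 692 in BPA10, and 567 and 658 in BPA100, all 4 BPA arrays below vehicle. Of 16 other cation channel genes, 5 were higher and 11 lower in BPA10 than in vehicle (median -0.14), and 9 and 7 in BPA100. Between the doses, 1 of the 16 was higher at an unadjusted p under 0.05, where 2.44% of all probe sets were. This gene, the endolysosomal TRP relative Mcoln3, measured 65 and 88 in BPA10 and 127 and 160 in BPA100, with 65 and 136 in vehicle.

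Of 11 tested genes that set beta-cell excitation, 7 were higher and 4 lower in BPA10 than in vehicle (median 0.09), and 5 and 6 in BPA100 (median -0.10). Abcc8, the sulfonylurea receptor of the ATP-sensitive potassium channel, measured 2437 and 2643 in vehicle, 2152 and 2304 in BPA10, and 2208 and 2336 in BPA100, all 4 BPA arrays below vehicle by differences of -0.19 and -0.16. The potassium channel gene Kcnq1 measured 73 and 52, 128 and 84, and 49 and 50, and was higher in BPA10 than in vehicle at an unadjusted p of 0.0313, the 1 gene of the 11 called this way (3.12% of all probe sets). Against BPA10, BPA100 differed by -1.05 for Kcnq1 and -0.62 for the chloride channel gene Ano1, the 2 of the 11 genes that were lower at an unadjusted p under 0.05 between doses (2.31% of all probe sets). None passed the adjusted test in limma.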

How the data were processed

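RNA of 6 islet preparations was labelled as biotinylated cRNA over 2 cycles of cDNA synthesis and hybridised to Affymetrix arrays, per the labels' protocols. Each deposited intensity is the authors' MAS5 signal of a probe set on an array, on a linear scale. MAS5 is named in the submitters' processing notes, and its version is not given in the sources used here. From the values, each array's mean with 2% trimmed at each end is 150. Detection calls do not enter, and a genome build enters only through the promoter windows.

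Values were taken as log2(signal + 1). Of 45101 probe sets, 64 controls were left out, and the 27022 with a mean at or above the 40th percentile were tested with limma 3.58.1 in R 4.3.3 (lmFit, eBayes with an intensity trend, 3 residual and 5.4 prior degrees of freedom), on 3 group means and all 6 arrays, 2-sided, with Benjamini-Hochberg adjustment over all tested probe sets at a threshold of 0.05. Precision is limited by the number of arrays, with a median SE of 0.241 over all tested probe sets. A permutation of 2 against 2 arrays cannot give a 2-sided p below 0.333. The method was tested on simulated data with independent noise of the same spread on every array. That setting leaves out the unequal pooling of mice.

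GEO's platform annotation gives a single symbol to 34945 probe sets, more than 1 to 932 (2 of them hold a member symbol and were not used) and no symbol to 9160. Array values are given in the text for 24 members known from islets, the 4 tested members with the smallest p and those with an unadjusted p under 0.05 in each comparison, the 8 brightest members, and other tested members. Members, lists and this rule were chosen with earlier results of these data known. Replicate numbers were used as names, with no block in the fit.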

Additional observations from a re-analysis of the deposited data

How the results depend on the processing

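The comparisons rest on 2 arrays a group, and 20 of the 55 members were too dim to be tested. The alternatives changed the scaling (quantile normalization or array medians), the pseudocount (16), the brightness limit (none, or the 60th percentile), the variance trend, the probe sets (averaged per gene), the arrays fitted (only the groups compared, only arrays of 1 mouse, or 1 array left out) and the replicate block. No member passed an adjusted p of 0.05 in any comparison under any of the 16 alternative settings (15 for the F test over the 3 groups); the smallest adjusted p of a member was 0.214. Over all probe sets, against 0 in each main comparison, BPA100 against vehicle gave 6 with arrays centred on their medians, BPA10 against vehicle gave 1 and BPA100 against vehicle 4 with only the groups compared, and the replicate number as a block gave 7 for BPA100 against vehicle and 2 over the 3 groups. The cause was not tested. The block changed no call of a member, and replicate numbers were not taken as pairs, since the labels state no pairing and the deviations of same-numbered arrays correlated at 0.19, 0.20 and 0.08 in the 3 pairs of groups. Leaving out 1 array gave 0 to 9 probe sets for BPA10 against vehicle, 0 to 5 for BPA100 against vehicle, 0 to 1 for BPA100 against BPA10 and 0 to 5 over the 3 groups, with 9, 5 and 5 without vehicle replicate 1 and 1 without BPA10 replicate 2 for BPA100 against BPA10. Of 184 values of the members named by p, 183 kept their direction and their side of the threshold; Cacna2d2 in BPA100 against vehicle was -0.12, against 0.45, with the mean of the gene's probe sets. Its 2 other probe sets are dim and differed by -0.80 and 0.00. Of 240 recomputed medians of members and lists, 22 moved by more than the spread between replicates, and the members' median ranged from -0.22 to -0.03, from -0.17 to 0.11 and from 0.05 to 0.17 in the 3 comparisons. Scaling moved the median of all tested probe sets by at most 0.03. Under the other scalings, the tested members whose difference changed sign were Cacna1f (BPA10 against vehicle) and Scn9a (BPA100 against BPA10), both at 0.00 as given.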

Other observations

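Scn4b, the gene of a sodium channel beta subunit that lay below the brightness limit, was noticed after its values were seen. It measured 30 and 6 on the vehicle arrays, 26 and 4 on the BPA10 arrays, and 19 and 4 on the BPA100 arrays. Replicate 1 was thus higher than replicate 2 in all 3 groups, without overlap between the replicate numbers, while the dose groups overlapped. The gene has 1 single-gene probe set on the array, and no test was made.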
